A study of Homo sapiens with 4 samples.

Results

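The genes described here encode the machinery that brings secretory and membrane proteins into the endoplasmic reticulum (ER) and attaches their first sugars. The list holds 33 genes in 5 groups, namely the signal recognition particle (SRP) and its receptor, the SEC61 translocon, the translocon-associated protein (TRAP) complex, signal peptidase and oligosaccharyltransferase (OST). A gene was measured through a probe set whose platform annotation names that gene and no other. Of several such probe sets, the one with the highest mean over all arrays was taken. This gave values for 32 of the 33 genes, out of 18417 genes named in the same way in the whole table. SEC61G, the small gamma subunit of the translocon, had no probe set of its own and was not analysed here.

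The cells were HT1080, a line from a human fibrosarcoma, held at 1% oxygen (hypoxia) or 21% oxygen (control) for 36 h in medium with 0.4% fetal calf serum in both conditions. ER-RNA, the RNA recovered with an ER fraction made with an isolation kit, and total RNA were each measured under both conditions on Affymetrix Human Gene ST arrays, 4 arrays in all. Per the methods, cells were pretreated with cycloheximide, which holds ribosomes on their transcripts, before the ER was isolated. Each array carried RNA pooled from 5 independent experiments, so there is no replicate, no measure of the spread between experiments and no p-value. All values are log2 values after robust multi-array averaging (RMA).

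SRP binds the signal sequence of a nascent chain as it leaves the ribosome and takes the ribosome to the SRP receptor on the ER membrane. The chain then enters the SEC61 channel, helped by TRAP and TRAM proteins. Signal peptidase removes the signal sequence, and OST moves a preassembled glycan from a lipid carrier onto asparagine residues of the chain. The SRP proteins are made on free ribosomes and work in the cytosol, whereas nearly every other subunit is itself a membrane protein of the ER.

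The array medians were 6.34 in hypoxia and 6.25 in control for ER-RNA, and 7.49 in hypoxia and 7.41 in control for total RNA, so hypoxia was set against control within each fraction. To count as expressed, a gene had to lie above the array's own median on 1 or both arrays of a fraction, and all 32 genes did so in both fractions. Over all expressed named genes the median log2 fold change stood at -0.037 in ER-RNA, with 52.5% of genes below 0, and at -0.058 in total RNA, with 55.7% below 0. Of 6 mesenchymal markers, 5 lay above the array median on all 4 arrays, THY1 being the exception, and 4 of 5 epithelial markers did so on none, KRT19 being the exception. The 3 leukocyte markers measured lay above it on none. In bulk RNA, fewer cells with a transcript and less of it per cell cannot be told apart, which holds for every difference given here.

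Most targeting and glycosylation genes lay a little lower in hypoxia, and few passed the thresholds of the methods. These ask for a change of more than 1.4-fold together with a z-score beyond 3 in the same direction, where the z-score is the log2 difference over the SD that a fitted curve gives at the gene's mean level. In ER-RNA 3 of the 32 genes were called down (9.38%), SRP54, SRPRB and DAD1, against 8.25% of all 11876 expressed named genes. In total RNA 1 of 32 was called down (3.12%), SPCS1, against 7.45% of all 11530. None of the 32 was called up in either fraction, against 1.12% of all genes in ER-RNA and 2.32% in total RNA. The calls therefore did not exceed the background by much in ER-RNA and lay under it in total RNA. By the fold threshold alone, 13 genes (40.6%) were lower in ER-RNA, against 21.4% of all genes, and 7 (21.9%) in total RNA, against 18.6%. On the same rule no gene was higher in ER-RNA, against 6.53% of all genes, and 1 gene, TRAM1, was higher in total RNA, against 6.20%.

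In signs, 24 of the 32 genes had a log2 fold change below 0 in ER-RNA and 28 in total RNA, and 23 were below 0 in both. The 3 genes above 0 in both fractions were TRAM1, SEC11A and TUSC3. The ER-RNA signs of genes near 0 depended on how the arrays were scaled. After other normalizations 20 to 31 of the 32 genes lay below 0 in ER-RNA and 27 or 28 in total RNA. Across the 32 genes, Pearson's r between the change in ER-RNA and the change in total RNA was 0.618 and Spearman's rho 0.644, as a description across genes, which are not independent replicates. Whether both fractions came from the same cultures was not stated in the sources used here.

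**Figure D1:**
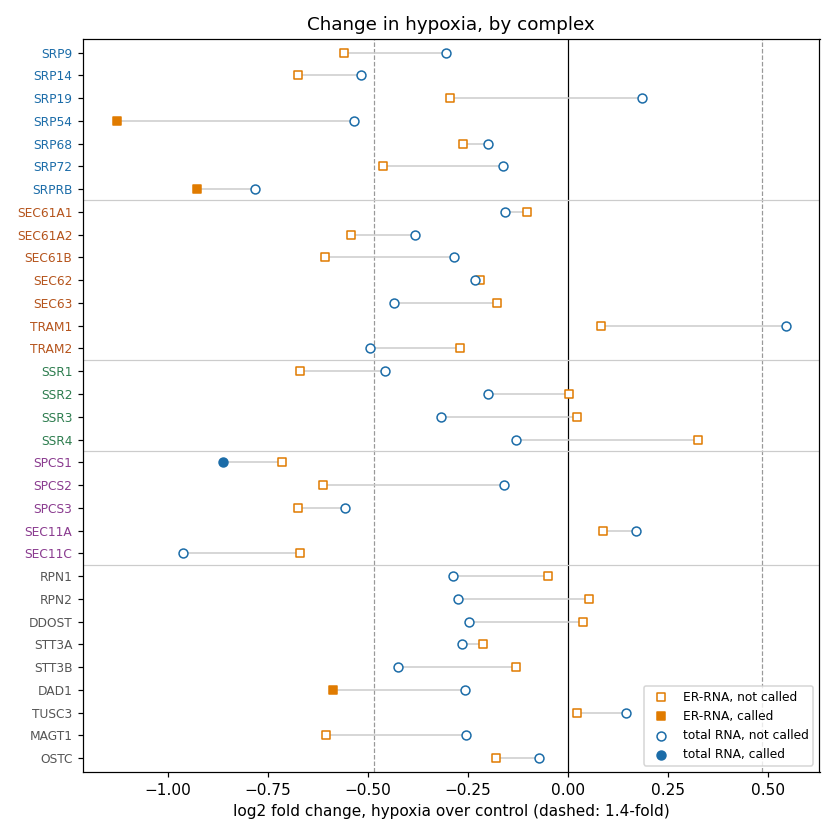
Log2 fold change of hypoxia over control for the 32 genes measured (x axis), ordered by complex (y axis), with squares for ER-RNA and circles for total RNA. Filled symbols are called changes, which are SRP54, SRPRB and DAD1 in ER-RNA and SPCS1 in total RNA, and dashed lines mark the fold threshold of 1.4.

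The complexes did not lie at the same place. Median log2 fold changes in ER-RNA were -0.67 for signal peptidase and -0.56 for SRP and its receptor, then -0.22 for the SEC61 group, -0.13 for OST and 0.012 for TRAP. In total RNA signal peptidase was again lowest at -0.56, and the others lay close together, at -0.30 for SRP, -0.29 for SEC61 and -0.26 for both TRAP and OST. Over all 32 genes the median was -0.27 in each fraction. The place of OST and TRAP relative to 0 in ER-RNA moved with the scaling. The OST median was 0.037 after quantile normalization of the pair and 0.00021 after loess, and the TRAP median was -0.076 after median centring.

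Every SRP and receptor gene was lower in hypoxia in ER-RNA, by log2 fold changes between -1.13 and -0.26. SRP54, the GTPase subunit that holds the signal sequence, read 7.88 in hypoxia and 9.01 in control in ER-RNA, and 8.86 in hypoxia and 9.39 in control in total RNA. It fell in ER-RNA to 0.458-fold (z-score -3.66), the lowest fold change in ER-RNA of all 32 genes, while its total RNA ratio of 0.691 was not called (z-score -1.97). SRPRB, the membrane-anchored beta subunit of the SRP receptor, read 7.58 in hypoxia and 8.51 in control in ER-RNA, and 9.17 in hypoxia and 9.95 in control in total RNA. Its ER-RNA ratio of 0.526 was called (z-score -3.16) and its total RNA ratio of 0.581 was not (z-score -2.81). Both genes were thus lower in hypoxia in both fractions. The ER-RNA calls of both were lost with an SD from the scaled median absolute deviation, and that of SRPRB also after quantile or loess normalization of the pair. That SD makes a stricter rule for every gene. Over all expressed named genes it left 239 called down in ER-RNA, against 980 in the main setting.

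Among the other SRP subunits, the pair that binds the Alu domain and slows elongation was not called. SRP14 had log2 fold changes of -0.67 in ER-RNA and -0.52 in total RNA. SRP9, its partner, had -0.56 in ER-RNA and -0.30 in total RNA. SRP9 is uncertain, because its 2 probe sets share all 13 of their annotated accessions, and the other set gave -0.44 and -0.22. The large subunits that bind each other, SRP68 and SRP72, lay nearer 0. SRP68 read 7.99 in hypoxia and 8.25 in control in ER-RNA, and 9.78 in hypoxia and 9.98 in control in total RNA, log2 fold changes of -0.26 and -0.20. SRP72 had -0.46 in ER-RNA and -0.16 in total RNA. SRP19, which helps SRP54 join the particle, was the exception in direction. It read 9.43 in hypoxia and 9.73 in control in ER-RNA, and 9.57 in hypoxia and 9.38 in control in total RNA, so the fractions moved opposite ways, neither past the threshold.

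Of the SEC61 group, none was called in either fraction. SEC61B, the small tail-anchored beta subunit of the channel, read 10.97 in hypoxia and 11.58 in control in ER-RNA, a ratio of 0.656 and the lowest ER-RNA ratio of the group. In total RNA it read 10.41 in hypoxia and 10.70 in control. The pore subunits SEC61A1 and SEC61A2 are paralogues. SEC61A1 read 9.80 in hypoxia and 9.91 in control in ER-RNA, and 11.94 in hypoxia and 12.09 in control in total RNA. SEC61A2 read 5.72 in hypoxia and 6.26 in control in ER-RNA, and 8.38 in hypoxia and 8.76 in control in total RNA. The ratios were 0.932 in ER-RNA and 0.897 in total RNA for SEC61A1, and 0.686 and 0.767 for SEC61A2, whose ER-RNA value in hypoxia lies below the array median and is less firmly measured.

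SEC62 and SEC63 form a membrane complex that helps short or slowly targeted chains into the channel. SEC62 had log2 fold changes of -0.22 in ER-RNA and -0.23 in total RNA, and SEC63 had -0.18 and -0.43. The TRAM paralogues went apart in total RNA. TRAM1, which contacts nascent chains at the translocon, read 9.47 in hypoxia and 9.39 in control in ER-RNA, and 10.95 in hypoxia and 10.40 in control in total RNA. Its total RNA ratio of 1.46 was the highest of the 32 genes, with a z-score of 1.97 that was not called. TRAM2 read 9.10 in hypoxia and 9.37 in control in ER-RNA, and 11.97 in hypoxia and 12.46 in control in total RNA. Its ratios were 0.829 in ER-RNA and 0.709 in total RNA, the lowest of the SEC61 group in total RNA.

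TRAP, a heterotetramer beside the channel, helps chains with weak signal sequences to enter, and none of its genes was called. In ER-RNA SSR1, the alpha subunit, differed from the others. It read 8.37 in hypoxia and 9.04 in control in ER-RNA (ratio 0.629), and 10.39 in hypoxia and 10.84 in control in total RNA (ratio 0.729). SSR4, the delta subunit, lay at the other end, with 8.51 in hypoxia and 8.19 in control in ER-RNA, a ratio of 1.25 and the highest ER-RNA ratio of the 32 genes. In total RNA SSR4 read 8.38 in hypoxia and 8.51 in control, a ratio of 0.914. SSR2 and SSR3, the beta and gamma subunits, had ratios of 1.00 and 1.02 in ER-RNA and of 0.870 and 0.803 in total RNA. SSR4 was the only gene of the 32 that stayed above 0 in ER-RNA under all 3 other scalings of the pair.

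Signal peptidase had the lowest medians in both fractions. SPCS1, an accessory membrane subunit, read 10.05 in hypoxia and 10.77 in control in ER-RNA, and 10.02 in hypoxia and 10.88 in control in total RNA. It fell in total RNA to 0.550-fold (z-score -3.08), and its ER-RNA ratio of 0.610 was not called (z-score -2.28). The z-score lies just past the threshold, and the call was lost after quantile or loess normalization of the pair and with the other SD. SPCS2 and SPCS3, the other accessory subunits, were lower by ratios of 0.654 and 0.627 in ER-RNA and of 0.896 and 0.680 in total RNA, none of them called. The 2 probe sets of SPCS2 share all 11 annotated accessions, so its value is uncertain, and the other set gave log2 fold changes of -0.59 in ER-RNA and -0.23 in total RNA.

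The catalytic subunits of signal peptidase come as alternative paralogues, SEC11A and SEC11C, which differed from each other. SEC11A read 8.79 in hypoxia and 8.70 in control in ER-RNA, and 9.30 in hypoxia and 9.13 in control in total RNA. SEC11C read 5.86 in hypoxia and 6.53 in control in ER-RNA, and 6.71 in hypoxia and 7.67 in control in total RNA. SEC11C had the lowest total RNA ratio of the 32 genes, 0.513, and a ratio of 0.629 in ER-RNA. It lay below the median of the hypoxia array in both fractions and was not called, with a z-score of -2.70 in total RNA. With no filter on expression, and in total RNA also after loess, it passed. SEC11A had ratios of 1.06 in ER-RNA and 1.12 in total RNA.

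**Figure D2:**
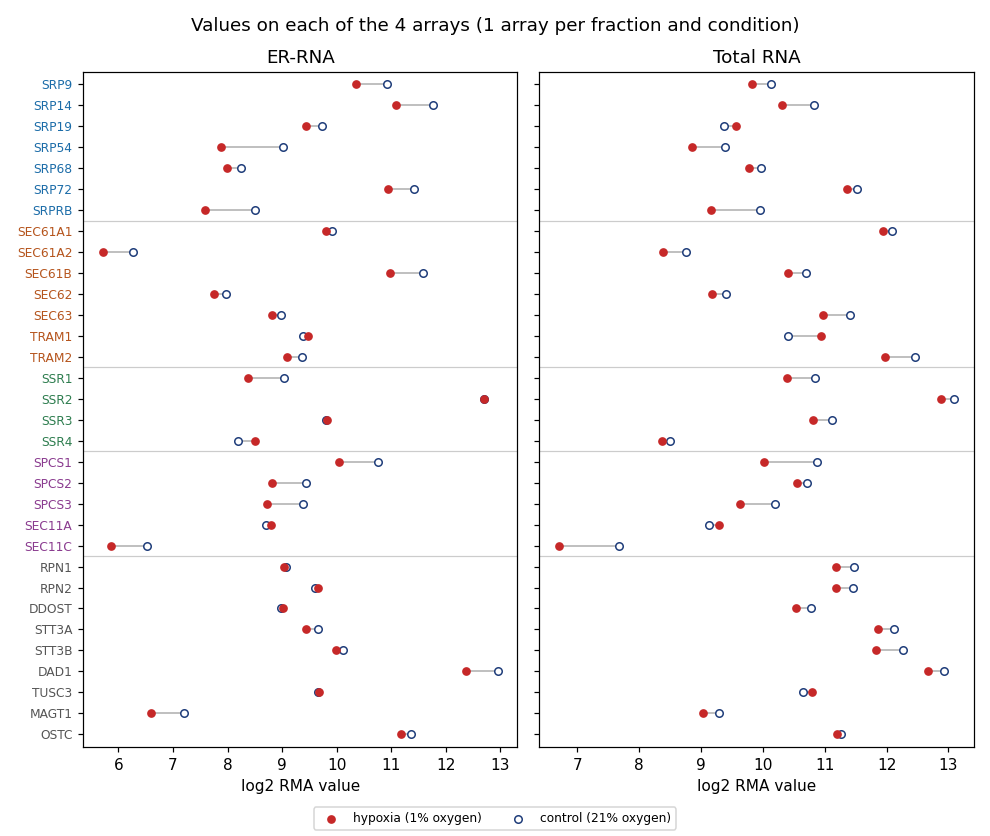
Log2 RMA values (x axis) of the 32 genes on the 4 arrays, ER-RNA on the left and total RNA on the right, with filled points for hypoxia and open points for control. In ER-RNA the points of SRP54 and SRPRB lie furthest apart, with hypoxia lower, and those of SSR2, SSR3 and TUSC3 nearly coincide. The points of DAD1, which was called, lie closer together than those of several uncalled genes, SPCS1 and SRP14 among them.

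OST gave a narrow picture in total RNA, where 8 of its 9 genes lay below 0 and none was called. The catalytic paralogues were alike. STT3A, which glycosylates chains as they pass the channel, read 9.44 in hypoxia and 9.65 in control in ER-RNA, and 11.86 in hypoxia and 12.12 in control in total RNA. STT3B, which acts on sites that were skipped, read 9.98 in hypoxia and 10.11 in control in ER-RNA, and 11.83 in hypoxia and 12.26 in control in total RNA. The ratios were 0.864 in ER-RNA and 0.832 in total RNA for STT3A, and 0.913 and 0.744 for STT3B, the lowest of the complex in total RNA.

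DAD1, a small membrane subunit first known for the cell death that follows its loss, was the called OST gene. It read 12.36 in hypoxia and 12.95 in control in ER-RNA, and 12.66 in hypoxia and 12.92 in control in total RNA. DAD1 fell in ER-RNA to 0.665-fold (z-score -3.24), and its total RNA ratio of 0.836 was not called (z-score -1.49). The ER-RNA call was lost after loess normalization and with the SD from the scaled median absolute deviation. Its fold is smaller than that of SPCS1, SEC11C or SSR1 in ER-RNA, which were not called, the fitted SD being lower at the level of DAD1. MAGT1, at a ratio of 0.658 in ER-RNA, had a z-score of -2.60 and was not called.

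TUSC3 and MAGT1 are alternative oxidoreductase subunits of the STT3B form of OST. TUSC3 read 9.68 in hypoxia and 9.66 in control in ER-RNA, and 10.80 in hypoxia and 10.65 in control in total RNA. MAGT1 read 6.60 in hypoxia and 7.20 in control in ER-RNA, and 9.03 in hypoxia and 9.29 in control in total RNA. TUSC3 had the highest total RNA ratio of the complex, 1.11, whereas MAGT1 had the lowest ER-RNA ratio, 0.658. A second probe set of MAGT1, not expressed in either fraction, brings its ER-RNA log2 fold change to -0.40 in the mean of both, and DAD1 is then the lowest of OST at -0.59. MAGT1 passed both thresholds in ER-RNA after loess normalization and after median centring.

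The large scaffold subunits of OST stayed within small differences. RPN1 and RPN2, the ribophorins, had ER-RNA ratios of 0.965 and 1.04 and total RNA ratios of 0.820 and 0.826. RPN2 read 9.66 in hypoxia and 9.61 in control in ER-RNA, the highest log2 fold change of the complex there at 0.053, and 11.19 in hypoxia and 11.46 in control in total RNA. DDOST, a subunit needed for the stability of the complex, had ratios of 1.03 in ER-RNA and 0.842 in total RNA. OSTC, a subunit of the STT3A form that meets the translocon, had 0.883 and 0.952.

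The fractions were then set against each other, as the difference of ER-RNA and total RNA values centred on the median of all named genes, since they share no scale. Above 0 means more ER-RNA signal relative to total RNA than for a typical gene, whatever the level in ER-RNA itself. SRP14 stood at 1.86 in hypoxia and 2.04 in control, at the 98.2 and 98.8 percentile of all genes expressed in both fractions. SEC61B followed with 1.65 in hypoxia and 2.00 in control, and SRP9 with 1.62 and 1.90. At the other end TRAM2 stood at -1.78 in hypoxia and -1.98 in control, at the 0.811 and 0.396 percentile. Between them SEC61A2 had -1.58 and -1.39, STT3A had -1.33 and -1.36, and SEC61A1 had -1.04 and -1.07. Subunits of the same membrane channel, SEC61A1 and SEC61B, thus lay on opposite sides of 0. Their percentiles in hypoxia and control were 8.57 and 7.95 for SEC61A1, and 96.9 and 98.6 for SEC61B.

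The cytosolic SRP proteins had a median of 0.82 in hypoxia and 1.23 in control, and the other 26 genes, the ER subunits, one of -0.41 and -0.26. Of the 32 genes 15 lay above 0 in each condition. By complex the median was 0.68 in hypoxia and 1.00 in control for SRP and its receptor, 0.51 and 0.27 for TRAP, 0.25 and 0.31 for signal peptidase, -0.44 and -0.74 for OST, and -1.04 and -1.07 for SEC61. By median, these ER subunits therefore did not stand above the cytosolic SRP subunits on this measure, in either condition. The genes were spread, with 10 of the 26 ER subunits and 5 of the 6 SRP subunits above 0 in each condition. SRP68 stood at -0.70 in hypoxia and -0.61 in control. The comparison covers these genes only. The differences in hypoxia and in control correlated across the 32 genes with r of 0.967, as a description across genes.

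**Figure D3:**
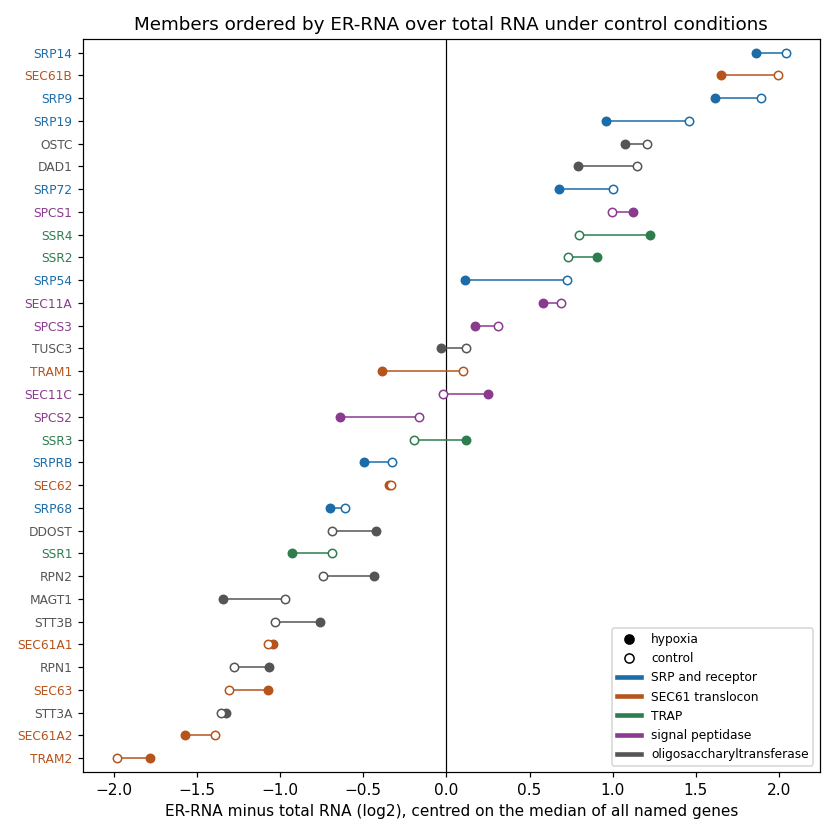
ER-RNA minus total RNA on the log2 scale, centred on the median of all named genes (x axis), with filled points for hypoxia, open points for control and colours for the complexes. SRP14, SEC61B and SRP9 stand highest and TRAM2 lowest in both conditions, and the 6 SRP genes and SRPRB lie further left in hypoxia (SRPRA is not plotted).

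The change in ER-RNA minus the change in total RNA had a median of -0.095 over the 32 genes, with 18 of them lower, against -0.0081 and 51.5% lower over all 10851 named genes expressed in both fractions. For the listed SRP genes and SRPRB it was lower in 7 of 7 genes (median -0.26), under each scaling tried. SRPRA, the other receptor subunit, which is not on the list, lay the other way, with log2 fold changes of -0.57 in ER-RNA and -0.83 in total RNA. SRP54 had the largest shift, -0.59, followed by SRP19 with -0.48. In OST 4 of 9 were lower (DAD1, TUSC3, MAGT1 and OSTC) and 5 were higher (RPN1, RPN2, DDOST, STT3A and STT3B). TRAP was higher in 3 of 4, signal peptidase lower in 3 of 5 and SEC61 lower in 3 of 7. Over all genes the middle 50% of these shifts ran from -0.21 to 0.17, and with 1 array per condition none of them was tested.

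Other genes of protein entry and N-glycosylation, from lists fixed beside the 33, gave 43 measured of 50. The rest, OST4, UBL4A, SRD5A3, ALG11, ALG10 and ALG10B among them, were not analysed here. Of those expressed, 5 of 42 were called down in ER-RNA, against 8.25% of all genes, and 4 of 41 in total RNA, against 7.45%, so both shares lay near the background. None was called up, against 1.12% and 2.32%. SRPRA, the alpha subunit that docks SRP beside SRPRB, read 11.12 in hypoxia and 11.95 in control in total RNA, where it fell to 0.564-fold (z-score -3.29), and had a ratio of 0.673 in ER-RNA that was not called. The ER membrane complex, an insertase for membrane proteins, had a median of -0.48 in ER-RNA and -0.26 in total RNA. Its subunit EMC2 fell in ER-RNA to 0.408-fold, with 7.01 in hypoxia and 8.30 in control, and EMC7 to 0.509-fold, with 8.01 in hypoxia and 8.98 in control. In total RNA EMC2 had a ratio of 0.526, but it did not count as expressed there and could not be called. The total RNA ratio of EMC7, 0.664, was not called. The call of EMC7 was lost after quantile or loess normalization and, like those of EMC2 and SRPRA, with the SD from the scaled median absolute deviation.

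Synthesis of the lipid-linked oligosaccharide that OST uses had a median of -0.31 in ER-RNA and -0.32 in total RNA over its measured genes. ALG14, which recruits the enzyme for the second sugar to the membrane, was the gene called in both fractions. It fell to 0.424-fold in ER-RNA, with 6.70 in hypoxia and 7.93 in control, and to 0.547-fold in total RNA, with 7.36 in hypoxia and 8.23 in control. ALG3, a mannosyltransferase on the lumenal side, fell in total RNA to 0.479-fold, with 11.55 in hypoxia and 12.61 in control. DOLPP1, which recycles the dolichol carrier, fell in total RNA to 0.478-fold, with 7.90 in hypoxia and 8.96 in control. The ER-RNA ratios of ALG3, 0.661, and of DOLPP1, 0.809, were not called.

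Called in ER-RNA and not in total RNA were DHDDS and DPM1 of the same pathway. DHDDS, a subunit of the enzyme that builds the dolichol chain, fell to 0.515-fold, with 6.68 in hypoxia and 7.64 in control. DPM1, the catalytic subunit that makes the mannose donor, fell to 0.526-fold (z-score -3.01), with 10.10 in hypoxia and 11.03 in control. Their total RNA ratios were 0.800 for DHDDS and 0.811 for DPM1. The DPM1 call was lost after quantile or loess normalization and with the SD from the scaled median absolute deviation, and the calls of DHDDS and DOLPP1 with that SD. The other lists had no call. Tail-anchored protein insertion had medians of -0.12 in ER-RNA and -0.15 in total RNA, and early N-glycan trimming had -0.050 and 0.11.

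**Figure D4:**
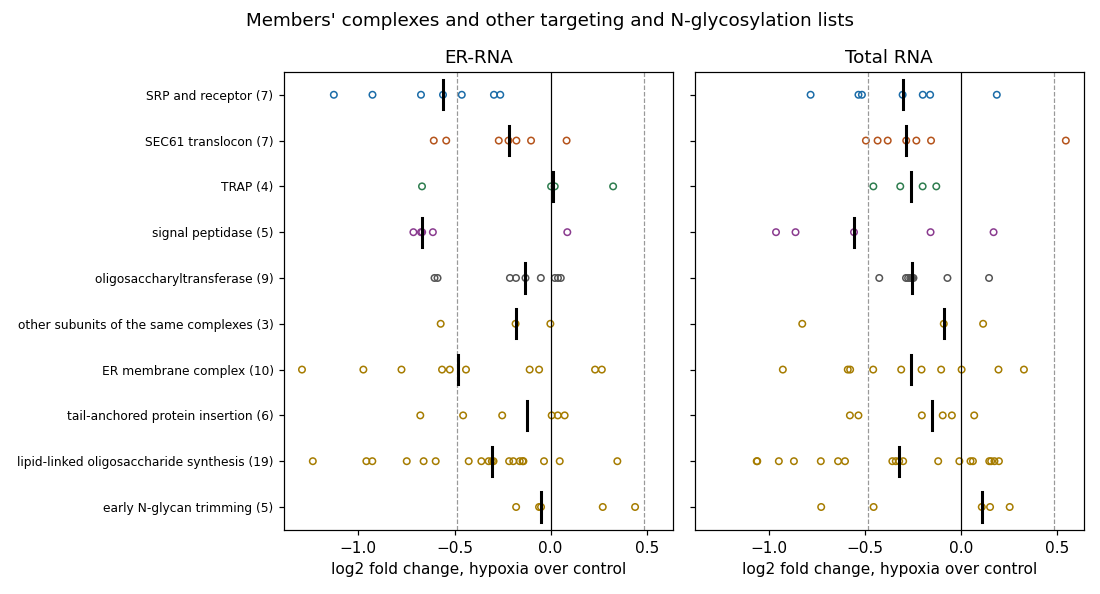
Log2 fold changes of hypoxia over control (x axis) for the 5 complexes and 5 other lists (y axis, number of genes measured in brackets), ER-RNA on the left and total RNA on the right. Points are genes, bars are list medians and dashed lines mark the fold threshold of 1.4; signal peptidase has the lowest median in both panels.

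The genes' promoters were searched for sites of the unfolded protein response and hypoxia, in RefSeq windows of build GRCh38.p14 from 250 bases before to 50 after a gene's start. Of the 33 genes 28 had a window, 36 windows in all, the others being SPCS1, RPN1, STT3B, TUSC3 and TRAM1. Both strands were searched. The motif TGACGTGG, the unfolded protein response element, was in 4 of the 36 windows (11.1%), against 0.729% of all 35116 windows. It lay on the opposite strand in each, so that its reverse complement is in capitals in these stretches, shown because they are the members that carry it.
SRP19 (chr5:112861165-112861192, + strand): agtcttcatgCCACGTCAgagactagag
SEC62 (chr3:169966780-169966807, + strand): cctcctcgctCCACGTCAgagggaaccg
SSR3 (chr3:156554149-156554176, - strand): ctgataacagCCACGTCAgcaaggaaac
SSR4 (chrX:153794529-153794556, + strand): cagggaggggCCACGTCAgtgctgccag

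These 4 genes were called in neither fraction. The core ACGTG of the hypoxia response element, which also lies inside TGACGTGG, was in 19 of the 36 windows (52.8%) of 16 genes, against 21.4% of all windows. The ER stress element and ER stress element II were in none of the 36, against 0.0769% and 0.0541% of all. By gene, 16 of the 28 with a window held the ACGTG core, against 24.9% of all 27305 genes with a window. That background, like the one by window, is not limited to genes expressed here, and the share among expressed genes was not computed. The 3 genes called down in ER-RNA were among these 16, and SPCS1, called in total RNA, had no window. A link between the core and the calls was not tested. In the stretches of the 3 genes the core lies on the opposite strand, with its reverse complement in capitals.
SRP54 (chr14:34982774-34982798, + strand): tccccgaaatCACGTccctagacag
SRPRB (chr3:133805799-133805823, + strand): agtgcagggcCACGTcgcttttgct
DAD1 (chr14:22589399-22589423, - strand): agaaagagtaCACGTccccagctca

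A match describes letters in a window and not a bound site, and the motifs were chosen with the genes' values known.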

How the data were processed

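Per the labels and the methods, the authors hybridised ER-RNA and total RNA of HT1080 cells, pooled from 5 experiments, to 4 Affymetrix Human Gene 1.0 ST arrays and normalized them by RMA. The deposited values are log2 values. Partek 6.4 is named beside RMA in the submitters' processing notes, with no statement on whether the 4 arrays went through 1 RMA run. The table holds 33297 probe sets, of which 19460 name 1 gene in the platform annotation, and 19429 of these matched RefSeq by gene identifier.

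Calls followed the methods' thresholds, a fold change over 1.4 and a z-score over 3, among probe sets with at least 1 array of the pair above its 50% quantile. The SD came from a loess curve (span 0.75, degree 2) of SD against mean over the pair, which departs from the methods in that both arrays of a pair entered 1 fit, whereas the methods fitted treatment and control groups apart. In each fraction this rule called fewer genes up and more down than the paper reports, over a set of genes unlike the paper's. R 4.3.3, limma 3.58.1 and Python 3.11.15 were used, and the rule was tested on simulated data. Alternatives changed the SD, filter, scaling and probe set. With 4 arrays and no replicates, precision is limited by their number. The members and lists were chosen with earlier results of these data known. Genes given with all 4 values were those called, the highest and lowest of each complex in each fraction, and paralogue pairs. Further promoter motifs were looked at and are not reported.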

Additional observations from a re-analysis of the deposited data

Results flagged for a closer look

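In 6 genes the log2 fold changes of hypoxia over control lay on opposite sides of 0 in the fractions, a difference that was not tested, as there is 1 array per condition. SRP19 had -0.29 in ER-RNA and 0.19 in total RNA, a difference of -0.48. In the other genes ER-RNA was the higher. SSR4 had 0.33 in ER-RNA and -0.13 in total RNA, a difference of 0.45. SSR3 had 0.021 and -0.32, a difference of 0.34, and SSR2 had 0.0024 and -0.20, a difference of 0.20. RPN2 had 0.053 and -0.28, a difference of 0.33, and DDOST had 0.038 and -0.25, a difference of 0.29. After median centring, the ER-RNA values of SSR2, SSR3, RPN2 and DDOST were below 0, at -0.086, -0.066, -0.035 and -0.050, so that of these 6 only SRP19 and SSR4 kept opposite directions. Under the same centring TRAM1, SEC11A and TUSC3 came to differ in direction. Their values were -0.0048, -0.0011 and -0.066 in ER-RNA and 0.49, 0.11 and 0.091 in total RNA.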

How the results depend on the processing

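No paired analysis was possible because each fraction and condition has 1 array. The calls rest on the SD model. By fold change alone, members called were 13 down in ER-RNA and 7 down and 1 up in total RNA, and other pathway genes 12 down in each fraction. With an SD from the scaled median absolute deviation these were 0 and 0 for members, and 1 in ER-RNA and 2 in total RNA for the other genes. That SD is of the difference between the arrays of a pair, whereas the main one is of the values themselves. The same z-score cutoff is therefore harder to reach for every gene. Over all expressed named genes, calls down went from 980 to 239 in ER-RNA and from 859 to 209 in total RNA. Without the expression filter 2 members were called down in total RNA. After quantile normalization of the pair 0 members were called down in total RNA, and 3 of the other genes in ER-RNA, also 3 after loess. SRP54 kept its ER-RNA call in all but the scaled median absolute deviation, SRPRB lost it also after quantile and loess normalization, and DAD1 also after loess. SPCS1 lost its total RNA call under all 3. ALG14 lost its total RNA call when both arrays had to pass the filter.

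Medians of ER-RNA log2 fold changes after quantile normalization were -0.11 for all members, -0.39 for SRP and its receptor, -0.085 for SEC61, 0.11 for TRAP, -0.50 for signal peptidase and 0.037 for OST. After loess they were -0.44 for SRP, -0.55 for signal peptidase and 0.00021 for OST. In total RNA they were -0.17 for SRP and -0.42 for signal peptidase after quantile normalization, and -0.19, -0.44 and, for SEC61, -0.18 after loess. Signs of 11 members in ER-RNA and of OSTC in total RNA changed with a scaling. With all 4 arrays quantile normalized together, the ER-RNA minus total RNA medians in hypoxia and control were -0.36 and -0.38 for all members. They were 0.15 and 0.56 for SRP, -1.30 and -1.30 for SEC61, and -0.16 and -0.50 for TRAP. For signal peptidase they were 0.41 and 0.042, and for OST -0.79 and -1.01. The cytosolic SRP subunits had 0.48 and 0.90, and the ER subunits -0.59 and -0.50. TRAP thus turned below 0, and in hypoxia signal peptidase stood above SRP. Values near the array median, such as SEC11C and SEC61A2, are the least firm, and signal over background is not in the table.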
